A study of Mus musculus with 9 samples.

Results

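Organoids grown from sorted mouse prostate basal cells in medium with both R-spondin1 and dihydrotestosterone (DHT) were compared with organoids grown in the basal medium alone. The comparison takes the 3 libraries titled RD7 and the 3 titled BM, 6 of the 9 libraries of the study, and the 3 libraries with R-spondin1 and no DHT (titled R) are used to find what differed when both factors were present. All cells came from C57BL/6J mice and were cultured as organoids for 5 days. BM, which the labels call basement medium, is advanced DMEM/F12 with B27, HEPES, GlutaMAX, penicillin and streptomycin, N-acetylcysteine, EGF, the TGF-beta receptor inhibitor A83-01, the BMP antagonist Noggin and the ROCK inhibitor Y-27632, and all 3 media share these agents. R is BM with 500 ng/ml R-spondin1, and RD7 is BM with 500 ng/ml R-spondin1 and 100 nM DHT. DHT was never added without R-spondin1 in these samples, so an effect that needs both factors cannot be told apart from an effect of DHT alone. The labels do not say whether the 3 libraries of a medium came from separate animals, sorts or cultures, so p-values measure the spread between these libraries, which may be technical.

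The prostate epithelium has basal cells, which sit on the basement membrane and are marked by keratins such as Krt5 and Krt14 and the transcription factor Trp63, and luminal cells, which line the duct, are marked by Krt8 and Krt18 and make the secreted proteins of the prostatic fluid. DHT is a potent androgen, a steroid hormone that changes transcription in its target cells, and in the adult prostate it maintains luminal secretion. R-spondin1 binds receptors of the LGR family and removes the ubiquitin ligases Rnf43 and Znrf3 from the cell surface, which leaves more Wnt receptors in place and so raises signalling through beta-catenin.

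Libraries held between 6505859 (BM replicate 1) and 24141017 reads assigned to genes, a depth recovered from the spacing of the deposited FPKM values (read counts scaled for gene length and library size). RD7 libraries correlated with each other at 0.982 to 0.988 on the log2(FPKM + 0.5) scale, BM libraries with each other at 0.969 to 0.979, and RD7 with BM at 0.872 to 0.950. BM replicate 3 was the BM library closest to RD7, at 0.934 to 0.950. The basal markers Krt5, Krt14, Krt15 and Trp63 were present in all 9 libraries, which is what the cell type label calls for, and so were the luminal keratins Krt8 and Krt18. Being bulk RNA, these libraries do not separate fewer cells of a type from less RNA per cell.

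A large part of the transcriptome differed between the medium with R-spondin1 and DHT and the basal medium, with the largest gain in the secretory gene Sbp and the deepest fall in the gasdermin gene Gsdmc2. In limma's moderated test on log2(FPKM + 0.5) with Benjamini-Hochberg adjustment, 7453 of 15872 genes tested differed between RD7 and BM at an adjusted p under 0.05, which is 47% of genes tested, with 3424 higher (21.6%) and 4029 lower (25.4%). A difference of at least 1 on the log2 scale was reached by 1368 of the higher and 1209 of the lower genes, and a difference of at least 3 by 81 and 52. In 8309 of the 15872 genes (52.4%) the RD7 and BM libraries did not overlap, so a lack of overlap in a gene named below is common. Among protein-coding genes with a settled symbol, groups that did not overlap and a mean of at least 1 FPKM in either medium, the 10 largest gains included Sbp, Vsig8, Defb1, Abo, Lrg1, Mmp7, Chad, Agtr1a and Spink5, with log2 differences from 5.23 to 8.38. The 10 deepest falls were in Gsdmc2, Gsdmc3, Scara3, Gsdmc4, Tslp, Inhbb, Upk3a, Gas1, Pla2g7 and Cd34, with log2 differences from -7.03 to -4.58. Without RD7 replicate 2 the counts were 2219 higher and 2616 lower. By limma on the same scale, 1590 genes (10%) differed between R and BM and 4936 (31.1%) between RD7 and R, and these comparisons share libraries with RD7 against BM, so their values are given side by side and not as independent evidence.

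**Figure D1:**
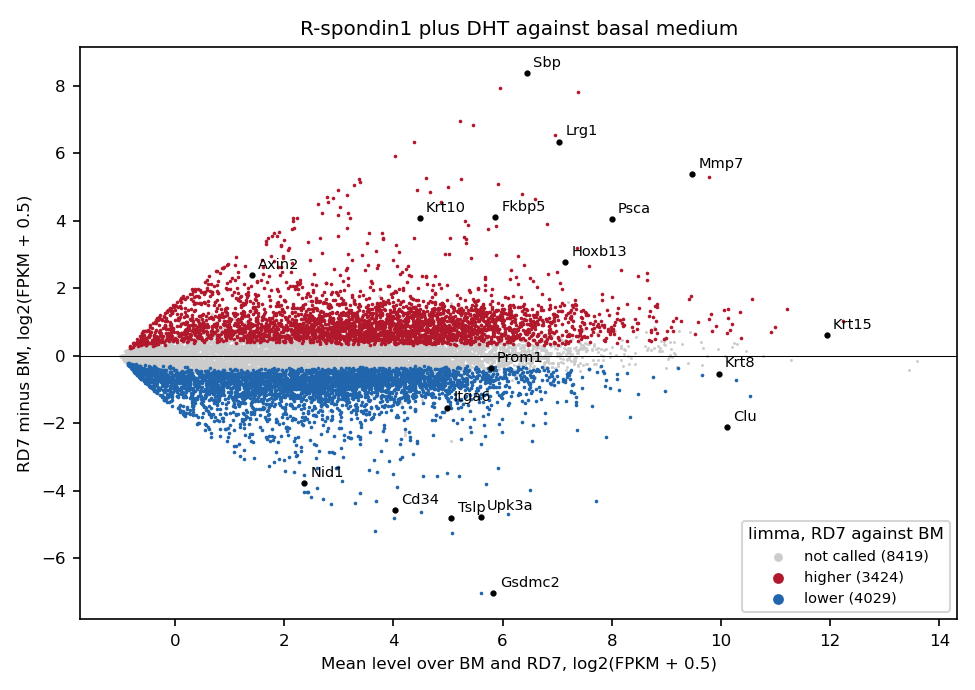
Each point is 1 of 15872 genes tested, with the mean level over BM and RD7 on the x axis and the RD7 minus BM difference on the y axis, both as log2(FPKM + 0.5). Red and blue points passed the limma test, black points are genes labelled by name, and Sbp at 8.38 and Gsdmc2 at -7.03 mark the ends of the range.

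The direction of change followed gene length. Across genes, Spearman's rho between length and the RD7 minus BM log2 difference was -0.38, a description over genes that are not independent replicates. Genes called higher had a median length of 2208.5 bases and genes called lower one of 4859, against 3563 for all genes tested. Of genes between 1 and 2 kb, 42.1% were higher and 11.4% lower, whereas of genes over 8 kb 4.91% were higher and 41.9% lower. With this trend removed from every library, 3596 genes were higher and 3319 lower, of which 2767 and 2745 were also called in the same direction without that step. Counts for gene groups below that move by more than 1.5 times under this step are given beside them, and the part of length in the remaining differences was not tested.

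**Figure D2:**
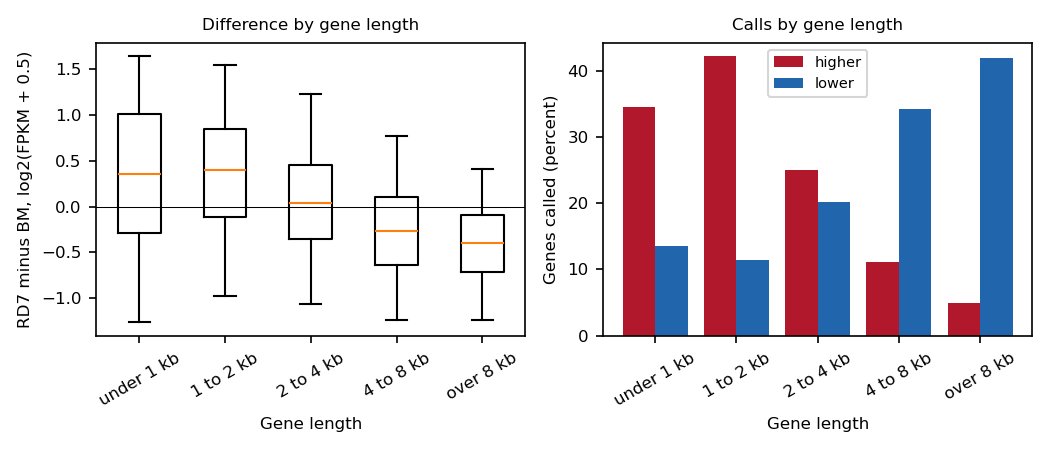
Left, RD7 minus BM log2 differences by gene length (box, quartiles; line, median; whiskers, 5th to 95th percentile of genes). Right, the percent of genes in each length class called higher or lower by limma. The share called higher falls from 42.1% between 1 and 2 kb to 4.91% over 8 kb.

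Fkbp5, a chaperone cofactor of steroid receptors and a standard androgen target, was at 7.22, 4.91 and 5.39 FPKM in BM and 128, 103 and 97.4 in RD7. Every RD7 library was far above every BM library, and Fkbp5 rose by 4.12 ± 0.18 (SE, n = 3 per group) on the log2 scale (limma adjusted p = 1.43e-07). In R it stood at 4.22, 3.59 and 5.06 FPKM, within or just below the BM range.

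Hoxb13, a homeobox factor of the prostate, was already present in BM at 30.1, 33.0 and 42.7 FPKM and reached 200.3, 260 and 279 in RD7. It rose 6.99-fold in mean FPKM (log2 difference 2.79 ± 0.18, limma adjusted p = 1.7e-06) with no overlap between the groups. Spdef, an Ets factor of secretory epithelium, fell in R and rose in RD7, with means of 5.59 FPKM in BM, 1.95 in R and 16.7 in RD7.

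Of 51 measured genes on the androgen-response list, 23 were higher in RD7 than in BM (45.1%, against 21.6% of all genes). Another 12 were lower (23.5%, near the 25.4% of all genes) and 16 did not pass the test. The median log2 difference was 0.31, against -0.07 for all genes tested. Large gains were seen in Azgp1 (a secreted zinc-binding glycoprotein, 0.242 to 15 FPKM), Fkbp5 and Zbtb16 (a zinc-finger repressor, 0.0764 to 5.25 FPKM). Lower members included Akap12, a kinase-anchoring protein (4.48 to 0.553 FPKM), Inpp4b, a phosphoinositide phosphatase (2.02 to 0.061), and the lipid enzymes Elovl5 (25.4 to 9.91) and Acsl3 (36.2 to 16.1). Of 13 measured genes that bind or metabolise steroids, 3 were higher (1 without BM replicate 2, RD7 replicate 2 or RD7 replicate 3) and 5 lower (23.1% and 38.5%, against 21.6% and 25.4% of all genes), or 3 lower with the length trend removed. Srd5a2, the enzyme that makes DHT from testosterone in the prostate, fell from 0.9, 2.67 and 2.03 FPKM in BM to 0.262, 0.429 and 0.139 in RD7 (limma adjusted p = 0.00155). It was at 0.0734 to 0.151 FPKM in R, so its lower level was already seen without DHT.

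Secretory genes of the prostate had the largest median gain of the lists with at least 10 measured genes. Of 37 listed genes, 19 passed the filter on low values, and of these 15 were higher, 2 lower and 2 not called, with a median log2 difference of 3.68 as fitted and 5.14 with genes at 0 in BM set to their lower bound. Since a silent gene passes the filter through RD7, this count, the median and its rank among the lists describe the 19 and not the whole list. The list was drawn up with earlier results of these libraries known. Sbp, an androgen-dependent spermine-binding protein of the ventral prostate, was read at 0, 0.0282 and 0.0347 FPKM in BM, 0.128, 0.205 and 0.0628 in R and 169, 161 and 191 in RD7. Only 2 reads over all BM libraries fell in Sbp against 13729 in RD7, a pooled ratio of 6401 with a 95% interval from 1772 to 52862 that covers counting error only.

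The secretory gene 9530002B09Rik had no read in BM or R and 104, 138 and 126 FPKM in RD7. Set against the level of 3 reads over the BM libraries, it was at least 1648-fold higher. Probasin (Pbsn), whose promoter is the classic prostate transgene driver, also had no BM read and came to 2.35, 1.74 and 2.17 FPKM, at least 31.5-fold higher. The higher secretory genes spanned RD7 means from 1.48 FPKM for Crisp1, a cysteine-rich secretory protein, to 1383 for Mmp7. Chad, a small leucine-rich matrix protein, rose from 0.713 to 46.4 FPKM on average, and the protease inhibitor Spink5 from 1.446 to 72.8. The 2 lower members were Clu (clusterin, a secreted chaperone, 1787 to 417 FPKM) and Ltf (lactoferrin, an iron-binding antimicrobial protein, 329 to 171).

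Mmp7, matrilysin, a small secreted protease, had the highest RD7 mean of the secretory list. It stood at 25.2, 26.5 and 51.5 FPKM in BM, 68.4, 59.9 and 51.7 in R and 1155, 1436 and 1558 in RD7, with no overlap between BM and RD7 (log2 difference 5.38 ± 0.25, limma adjusted p = 2.25e-07). The gene lies at chr9:7692090-7699585 on the plus strand (GRCm38), and 11.5% of its exonic bases overlap an antisense gene whose reads cannot be told apart in libraries that do not mark strand. The same limit applies to Gas1 (19.9% of exonic bases), Pla2g7 (11%), Tgfb3 (12.4%), Lef1 (13.7%), Ccn2 (23.2%) and Cyp2f2 (13.5%). Sgk1, a serum- and steroid-inducible kinase on the androgen-response list at chr10:21882184-21999903, was picked for display after its values were seen, because of its promoter. It was read at 57.4, 53.0 and 52.5 FPKM in BM, 39.5, 41.5 and 38.8 in R and 236, 232 and 185 in RD7, a 4.01-fold rise over BM (limma adjusted p = 1.88e-06).

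The promoter windows of these genes, from RefSeq on GRCm38.p6, are shown for the letters they hold. Windows of 250 bases before each annotated start were searched on both strands for the half-site AGAACA of a steroid hormone response element, for the palindrome made of AGAACA, any 3 bases and TGTTCT (which contains the half-site), for TATAAA and for CTTTGAT (a TCF/LEF motif). The palindrome was found in 1 of 10965 tested genes with a window, and that gene was Sgk1, at chr10:21993640-21993889 on the plus strand, before an internal start of the gene and 189 bases upstream of it. It is 1 of 6 windows of Sgk1, and the other 5 hold no palindrome. Mmp7 has 2 windows. The one shown, before the gene's first start, is chr9:7691840-7692089 on the plus strand and holds TATAAA at -26 and -123 relative to the start. The other, chr9:7692091-7692340 before a start inside the gene, holds the half-site at -232 and -193 and CTTTGAT, on the minus strand, at -247. A gene is counted below where any of its windows holds a match. Capitals mark matches.
Sgk1: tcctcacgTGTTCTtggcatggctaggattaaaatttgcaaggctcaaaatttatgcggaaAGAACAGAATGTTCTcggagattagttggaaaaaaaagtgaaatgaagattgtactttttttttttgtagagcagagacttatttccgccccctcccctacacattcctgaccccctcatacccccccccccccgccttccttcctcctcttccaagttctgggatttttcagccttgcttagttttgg
Mmp7: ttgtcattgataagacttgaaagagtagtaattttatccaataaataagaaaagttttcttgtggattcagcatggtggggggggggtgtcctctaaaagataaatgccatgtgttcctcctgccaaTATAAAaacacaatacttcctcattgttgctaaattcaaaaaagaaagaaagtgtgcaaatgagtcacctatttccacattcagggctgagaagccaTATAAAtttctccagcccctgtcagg
The half-site was present in 14.9% of genes higher in RD7 than in BM, 11.5% of genes lower and 13.2% of all tested genes with a window, and TATAAA in 9.79%, 8.07% and 8.28%. A match is a description of the letters and not a binding site.

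On the luminal list, the factor Hoxb13, a claudin and the keratin Krt19 were higher in RD7, while the keratins Krt8 and Krt18 were lower. Of 30 measured members, 13 were higher (43.3%, all genes 21.6%), 6 lower (20%, all genes 25.4%) and 11 not called, with a median log2 difference of 0.02. Besides Hoxb13, the gains included the claudin Cldn10, which was at 2.43, 2.05 and 4.84 FPKM in BM, 1.21, 0.996 and 0.624 in R and 103, 128 and 121 in RD7. It was 37.7-fold higher in RD7 than in BM with no overlap (limma adjusted p = 4.31e-07). Cited1, a transcriptional coactivator, rose from 0.117 to 1.81 FPKM. Of 20 tight junction genes, a list that shares Cldn10, 5 were higher (25%) and 7 lower (35%), near the 21.6% and 25.4% of all genes, with a median log2 difference of -0.11.

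The luminal keratins Krt8 and Krt18 moved the other way. Krt8 was at 1203, 1062 and 1255 FPKM in BM and 726, 936 and 789 in RD7, and fell by 0.53 ± 0.14 on the log2 scale (limma adjusted p = 0.0118), while Krt18 fell from 963 to 653 FPKM (limma adjusted p = 0.0233). The Krt18 call was lost in 4 of 18 alternative settings, among them without RD7 replicate 1 and without RD7 replicate 3 (highest adjusted p = 0.0715). Krt19, a keratin of both layers that is also on the luminal list, rose from 1395, 1271 and 1728 FPKM to 1992, 2595 and 2572 (limma adjusted p = 0.00698). Also lower were Cd38 (an ectoenzyme of luminal cells, 4.38 to 0.897 FPKM), the GATA factor Gata2 (9.20 to 3.2) and the pioneer factor Foxa1 (171 to 118, limma adjusted p = 0.0231, lost in 5 of 18 settings including those without BM replicate 1, BM replicate 2, RD7 replicate 2 or RD7 replicate 3). With BM and RD7 libraries fitted alone, 3 luminal markers were lower in place of 6.

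Markers of the proximal luminal progenitor, a stem-like cell of the ducts near the urethra, were mostly higher. Of 22 measured genes, 14 were higher (63.6%, all genes 21.6%), 5 lower (22.7%, all genes 25.4%) and 3 not called, with a median log2 difference of 0.70. Psca, a surface antigen of these cells, was at 21.4, 23.5 and 42.6 FPKM in BM, 305, 237 and 207 in R and 429, 652 and 365 in RD7. The gene was already raised in R and was 16.5-fold above BM in RD7, where no library overlapped BM (limma adjusted p = 4.19e-06). Lcn2, an iron-siderophore carrier, was at 99.2, 76.3 and 192 FPKM in BM and 503, 672 and 585 in RD7. Ly6a (Sca-1, a progenitor surface protein) rose from 332 to 1070 FPKM and Gsta3, a glutathione transferase, from 4.31 to 15.5. Cbr2, a carbonyl reductase, went from 706, 489 and 1048 FPKM to 1963, 2413 and 2483. It stood among the 10 most abundant nuclear protein-coding genes of RD7. The lower members were Clu, Ltf, Basp1 (184 to 70.1 FPKM), the retinal dehydrogenase Aldh1a3 (89.5 to 37.2) and the calcium channel Trpv6 (3.23 to 1.66). Clu and Ltf are members of the secretory list as well.

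The basal keratins Krt5 and Krt14 did not pass the test while most basal adhesion genes fell. Krt5 was at 2945, 2363 and 2494 FPKM in BM and 2442, 2292 and 2459 in RD7, and Krt14 at 1679, 1676 and 1898 against 1588, 1864 and 1810. Neither passed the test, with log2 differences of -0.11 (95% interval -0.39 to 0.16) for Krt5 and 0.00 (-0.28 to 0.28) for Krt14, where limma gave adjusted p of 0.472 and 0.994. With the length trend removed, Krt14 turned lower, at -0.30 (limma adjusted p = 0.033). Krt15, the most abundant nuclear protein-coding gene of both media, was at 3212, 2882 and 3190 FPKM in BM and 4230, 4829 and 5105 in RD7. Its gain was 0.61 ± 0.12 (limma adjusted p = 0.00389, and no longer called with the length trend removed, at 0.0553). The summed level of Krt8 and Krt18 over that of Krt5 and Krt14 was 0.457, 0.466 and 0.549 in BM and 0.317, 0.407 and 0.338 in RD7. This ratio was thus lower in each RD7 library than in each BM library. The exact two-sided permutation test gave p = 0.1, the smallest that 3 against 3 libraries allow. The ratio leaves out Krt15 and Krt19, which were both higher in RD7. Krt19, on the luminal list, rose from a mean of 1465 FPKM in BM to 2386 in RD7. The summed Krt8 and Krt18 fell by less, from 2136 to 1470. The direction of such a ratio therefore depends on which keratins are counted. In R the ratio was 0.296, 0.312 and 0.271, below every RD7 library, so the lower ratio was already present, and lower still, without DHT. Its parts did not move alike. Krt8 had a mean of 652 FPKM in R against 817 in RD7. Krt18 was at 934 in R, near its 963 in BM (limma adjusted p = 0.916), and at 653 in RD7. Krt5 had a mean of 3484 in R, against 2600 in BM and 2397 in RD7.

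Of 29 measured basal markers, 6 were higher (20.7%, near the 21.6% of all genes), 19 lower (65.5%, against 25.4% of all genes) and 4 not called. The median log2 difference was -0.90. The integrin subunit Itga6, part of the hemidesmosome and a surface marker used to sort basal cells, was at 39.8, 65.2 and 35.1 FPKM in BM and 19.0, 11.4 and 16.2 in RD7. It fell by 1.53 ± 0.25 (limma adjusted p = 0.00107) with no overlap. Sostdc1, a secreted BMP and Wnt antagonist, had a mean of 2.18 FPKM in BM and no read in RD7, at least 68.6-fold lower. The neuregulin ligand Nrg1 fell from 5.52, 5.99 and 5.35 FPKM to 1.66, 1.38 and 1.26. Trp63, the basal transcription factor, was at 39.6, 51.4 and 31.3 FPKM in BM and 33.4, 22.2 and 23.9 in RD7, ranges that overlap. Its limma adjusted p of 0.0455 was lost in 11 of 18 alternative settings, among them those without BM replicate 1 or 2, R replicate 1 or 2, or RD7 replicate 2 or 3, with a highest value of 0.238. Among the 6 higher members were Lgals7, a galectin of stratified epithelium (40.6 to 185 FPKM), Apoe (42.7 to 116), Dlk2 (4.55 to 12.6) and Cav1 (20.9 to 45.0).

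Genes of hemidesmosomes and the basement membrane, which anchor basal cells, were mostly lower. Of 23 measured, 18 were lower (78.3%, all genes 25.4%), 1 higher (4.35%, all genes 21.6%) and 4 not called. The median log2 difference was -1.17 (Itga6 is also a basal marker here), and 14 were lower with the length trend removed. Nid1, nidogen, which links laminin to collagen IV, was at 9.71, 10.6 and 7.09 FPKM in BM, 1.10, 1.23 and 1.45 in R and 0.213, 0.130 and 0.245 in RD7. The 3 media did not overlap, and Nid1 was 46.6-fold lower in RD7 than in BM (limma adjusted p = 1.91e-07). The laminin chains Lamb1 (12.8 to 1.35 FPKM) and Lama3 (18.3 to 4.83), the collagen-binding integrin Itga2 (33.2 to 5.55) and perlecan, Hspg2 (6.96 to 1.60), fell too. The single higher member (2 without BM replicate 3 or RD7 replicate 2) was the collagen IV chain Col4a1, at 29.3, 21.3 and 17.8 FPKM in BM and 73.9, 32.3 and 45.6 in RD7 (limma adjusted p = 0.0167).

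**Figure D3:**
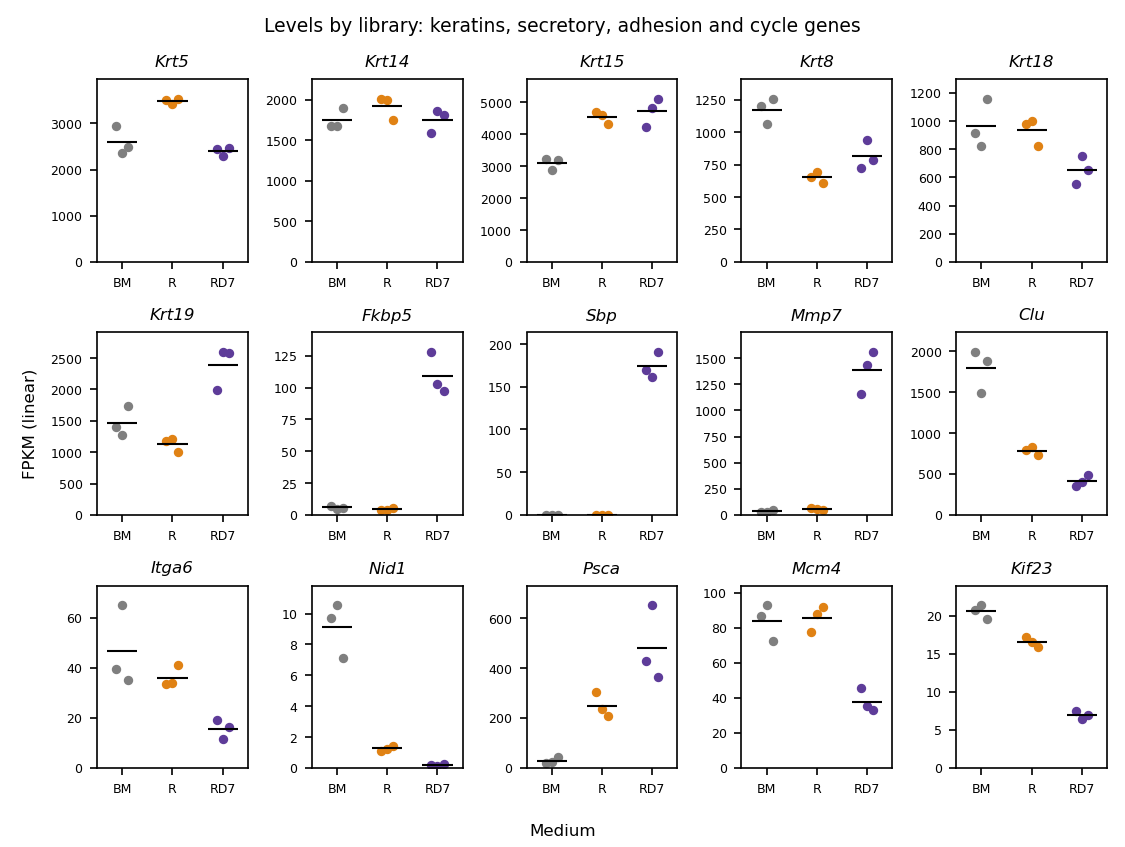
FPKM on linear axes from 0 for 15 genes in the 3 libraries of each medium (points) with the group mean (line). Sbp, Fkbp5 and Mmp7 are low in BM and R on these axes and high in RD7, Krt5 and Krt14 overlap between BM and RD7, and Clu, Itga6, Nid1, Mcm4 and Kif23 are lower in RD7 than in BM.

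Ligands and target genes of several signalling pathways were lower in RD7 than in BM. Among EGF receptor ligands and receptors, 2 of 16 were higher (12.5%, all genes 21.6%) and 9 lower (56.3%, all genes 25.4%), with a median log2 difference of -0.76. Epiregulin (Ereg) fell from 6.03, 10.9 and 7.72 FPKM to 0.745, 0.520 and 0.889, betacellulin (Btc) from a mean of 4.55 to 1.03 and amphiregulin (Areg) from 20.7 to 7.74. Egf itself, which the medium also supplies, rose from 0.0319 to 1.66 FPKM. Immediate-early and heat-shock genes did not share this direction, with 7 of 26 higher (26.9%, all genes 21.6%) and 10 lower (38.5%, all genes 25.4%) and a median log2 difference of 0.10. Egr3 (an early growth response factor) fell from 6.84, 5.35 and 4.32 FPKM to 0.158, 0.037 and 0.167 and the ERK phosphatase Dusp6 from 238 to 87.3, while the small heat-shock protein Hspb1 rose from 87.9 to 486.

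Notch pathway genes were higher in 2 (11.1%, all genes 21.6%) and lower in 10 (55.6%, all genes 25.4%) of 18 measured. The Notch target Hey1 was at 27.9, 28.1 and 24.2 FPKM in BM, 14.5, 15.9 and 13.9 in R and 2.65, 2.74 and 2.5 in RD7. It was lower in R than in BM and lower again in RD7, where it was 10.2-fold lower in RD7 than in BM (limma adjusted p = 6.93e-08). The ligand Jag1 fell from 36.2 to 6.00 FPKM, and the higher genes were the glycosyltransferase Rfng and the target Hes1. Hes1 went from 79.3 to 110 FPKM (limma adjusted p = 0.0343), a call lost in 9 of 18 settings, among them those without BM replicate 1, BM replicate 2, R replicate 1, RD7 replicate 2 or RD7 replicate 3.

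Of 23 BMP and TGF-beta response genes, 3 were higher (13%, all genes 21.6%) and 12 lower (52.2%, all genes 25.4%). The ligand Tgfb3 was at 9.13, 13.4 and 7.87 FPKM in BM, 8.66, 8.15 and 9.56 in R and 1.19, 0.727 and 0.507 in RD7, 12.5-fold lower than in BM, with no overlap (limma adjusted p = 7.04e-06). Ltbp2, a latent TGF-beta binding protein, fell from 13.3 to 0.149 FPKM. Id2, a BMP-induced inhibitor of basic helix-loop-helix factors, rose from 47.8 to 95.2. Inhbb, the activin beta-B chain and one of the 10 deepest falls, was at 36.2, 29.3 and 26.5 FPKM in BM and 0.591, 0.738 and 0.487 in RD7. All media contain A83-01 and Noggin, which block the receptors or ligands of both branches.

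YAP and TAZ targets were lower in 14 of 23 (60.9%, all genes 25.4%) and higher in 2 (8.7%, all genes 21.6%). The number higher was 0 with the length trend removed and without BM replicate 1, R replicate 1, RD7 replicate 2 or RD7 replicate 3, and 1 without BM replicate 2, BM replicate 3 or RD7 replicate 1. The connective tissue growth factor gene Ccn2 was at 178, 143 and 153 FPKM in BM, 15.3, 13.6 and 14.3 in R and 29.1, 27.9 and 24.8 in RD7. Both media with R-spondin1 were below BM, and RD7 lay above R. Igfbp3, an IGF-binding protein, fell in steps from 31.2 FPKM in BM to 16.4 in R and 3.51 in RD7, and Ankrd1 from 5.06 to 0.581 between BM and RD7.

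Wnt and beta-catenin targets did not move as 1 group. Of 28 measured, 5 were higher than in BM (17.9%, all genes 21.6%), 10 lower (35.7%, all genes 25.4%) and 13 not called, with a median log2 difference of -0.09. Without RD7 replicate 2 or RD7 replicate 3 the higher genes numbered 3, and with the length trend removed 8. Axin2, the feedback inhibitor that is the usual readout of beta-catenin, was at 0.391, 0.346 and 0.315 FPKM in BM, 3.88, 3.36 and 5.59 in R and 4.64, 3.49 and 3.79 in RD7. Its rise of 2.39 ± 0.19 over BM (limma adjusted p = 8.57e-06) was of the size seen in R, and RD7 minus R was -0.08 (95% interval -0.50 to 0.35). Wif1, a secreted Wnt inhibitor, was at 5.76, 5.97 and 7.00 FPKM in BM, 103, 112 and 98.3 in R and 72.3, 67.3 and 80.3 in RD7. The factor Lef1 had 3 reads in all BM libraries and 538 in RD7, a pooled ratio of 167 (95% counting interval 56.9 to 813), and its mean was higher in RD7 (1.13 FPKM) than in R (0.388).

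Other Wnt genes were no longer raised in RD7. Lgr5, the R-spondin receptor, was at 0.015, 0.00807 and 0.00497 FPKM in BM, 0.714, 0.997 and 0.972 in R and 0.0109, 0 and 0.0288 in RD7, so that BM and RD7 overlapped. The lower genes of the list included Dkk3 (9.66 to 2.31 FPKM), the antagonist Sfrp1 (1.34 to 0.155), the hyaluronan receptor Cd44 (116 to 45.8) and Apcdd1, a Wnt inhibitor with 9.44 FPKM in BM, 22.6 in R and 3.54 in RD7. Against R, 4 of the 28 were higher and 17 lower in RD7 (all genes, 13.4% and 17.7%), while in R against BM 10 were higher and 2 lower (all genes, 4.38% and 5.64%).

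Squamous differentiation genes were partly raised relative to BM. In RD7, 17 of 42 measured were higher than in BM (40.5%, all genes 21.6%), 4 lower (9.52%, all genes 25.4%) and 21 not called, with a median log2 difference of 0.40. R had 32 higher than BM by limma (all genes, 4.38%) and 0 lower, also 0 at an unadjusted p under 0.05. Krt10, a suprabasal keratin of skin, was at 1.96, 1.43 and 2.39 FPKM in BM, 49.5, 46.8 and 54.9 in R and 32.0, 34.6 and 58.5 in RD7. The gain of 4.09 ± 0.23 over BM (limma adjusted p = 7.64e-07) was therefore present in both media, and RD7 and R overlapped. Sprr2d, a cornified envelope precursor, kept part of its gain (1.28, 52.5 and 21.1 FPKM in BM, R and RD7), while its relative Sprr2f did not (1.83, 40.4 and 2.36). Krtdap, a keratinocyte differentiation peptide, was higher in RD7 (21.9 FPKM) than in R (6.73) and BM (2.58). Involucrin (Ivl), a main envelope protein, was at 64.8, 83.9 and 83.7 FPKM in BM, 167, 174 and 154 in R and 25.3, 23 and 32.6 in RD7, and so ended below BM (limma adjusted p = 7.29e-05).

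Genes of the urothelium, the lining of the bladder and urethra, included several of the deepest falls. Of 18 measured, 3 were higher (16.7%, all genes 21.6%), 10 lower (55.6%, all genes 25.4%) and 5 not called. The gasdermin Gsdmc2 was at 115, 118 and 105 FPKM in BM, 7.82, 7.32 and 7.12 in R and 0.410, 0.407 and 0.281 in RD7, which is 307-fold lower than BM (limma adjusted p = 3.36e-10). Its neighbours Gsdmc3 and Gsdmc4 fell from 96.4 and 24.2 FPKM to 0.245 and 0.170, and since these copies are alike in sequence, how reads were shared among them is uncertain. Uroplakin 3a (Upk3a), a plaque protein of umbrella cells, was at 87.1, 69.6 and 122 FPKM in BM, 1.87, 1.28 and 1.54 in R and 2.48, 3.79 and 2.46 in RD7. Here R was the lowest medium and RD7 lay slightly above it. The higher members were Krt20, Krt13 and Grhl3, the last 2 of which are also on the squamous list.

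Most cell cycle genes were lower. Of 32 DNA replication genes, 20 were lower (62.5%, all genes 25.4%) and 1 higher (3.1%, all genes 21.6%), with a median log2 difference of -0.55. The higher gene was Gins4 (25.8 to 37.8 FPKM, limma adjusted p = 0.0369), whose call was lost without BM replicate 1 or 2, R replicate 1 or 2, or RD7 replicate 2 or 3, while without BM replicate 3 there were 3 higher genes. Of 25 mitosis genes, 16 were lower (64%, all genes 25.4%) and 0 higher by limma, also 0 at an unadjusted p under 0.05. Their median was -0.49, and without BM replicate 3 there were 3 higher. The helicase subunit Mcm4 was at 86.8, 92.9 and 72.5 FPKM in BM, 77.7, 87.9 and 91.5 in R and 45.6, 35.2 and 32.8 in RD7. The kinesin Kif23, which builds the cytokinetic midzone, was at 20.8, 21.4 and 19.5 FPKM in BM, 17.2, 16.5 and 15.9 in R and 7.47, 6.49 and 6.90 in RD7. In both genes each RD7 library was below all others, and Kif23 fell by 1.5 ± 0.12 (limma adjusted p = 7.38e-06). The proliferation marker Mki67 varied more, at 14.4, 22.2 and 12.1 FPKM in BM and 8.23, 6.05 and 13.0 in RD7, and its call (limma adjusted p = 0.0313) was lost in 8 of 18 settings, among them those without BM replicate 1, BM replicate 2, RD7 replicate 1 or RD7 replicate 2 (highest adjusted p = 0.14).

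Of all genes tested 25.4% were lower and 21.6% higher, against which the metabolic lists are given. Sterol synthesis genes were lower in 12 of 25 (48%) and higher in 5 (20%, 3 without BM replicate 1, BM replicate 2 or RD7 replicate 2). Fatty acid synthesis genes were lower in 12 of 22 (54.5%), or in 7 with the length trend removed, and included the citrate lyase Acly (149 to 70.3 FPKM) and the desaturase Fads1 (62.3 to 32.6). Of 28 glycolysis and hypoxia genes 10 were lower (35.7%, nearer the share of all genes) and 3 higher (5 without BM replicate 3, 1 without BM replicate 1 or 2, any 1 R library, or RD7 replicate 2 or 3), with the hypoxia-induced carbonic anhydrase Car9 at 52.8, 59.2 and 59.2 FPKM in BM and 13.0, 17.1 and 12.3 in RD7. The angiogenic factor Vegfa fell from 41.5 to 19.99 FPKM. The arginase Arg2, which feeds polyamine synthesis, rose from 6.35, 6.24 and 7.54 FPKM to 60.5, 77.9 and 78.4, a 10.8-fold gain, and 28.1% of its exonic bases overlap another gene. On the polyamine list as a whole 4 of 14 were higher and 4 lower (28.6% each way, near the shares of all genes), with the decarboxylase Odc1 lower (49.3 to 32.8 FPKM).

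Interferon-stimulated genes were mostly higher in RD7. Of 30 interferon-stimulated genes, 20 were higher (66.7%, all genes 21.6%), 2 lower (6.67%, all genes 25.4%) and 8 not called, with a median log2 difference of 0.89. In R against BM 10 were already higher by limma (all genes, 4.38%), with a median of 0.48. There 0 were lower, also 0 at an unadjusted p under 0.05. RD7 against R had 9 higher and 5 lower (all genes, 13.4% and 17.7%), with a median of 0.14. Isg15, a ubiquitin-like modifier, was at 7.73, 5.26 and 13.2 FPKM in BM, 19.1, 11.6 and 15.1 in R and 36.3, 57.3 and 40.2 in RD7. All 3 RD7 libraries were above the other 6 (limma adjusted p = 0.000283 against BM). The antiviral surface protein Bst2 rose from 12.4 to 39.1 FPKM and the chemokine Cxcl10 from 2.35 to 8.64, the latter with 7.66 already in R. The interferon-induced genes Ifit2 (2.45 to 1.31) and Trim30a (0.275 to 0.0687) were the lower ones, and the Ifit2 call was lost without BM replicate 1, BM replicate 2, RD7 replicate 1 or RD7 replicate 3 (highest adjusted p = 0.0739), that of Trim30a with the length trend removed.

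Of 39 genes for protein folding and export in the endoplasmic reticulum, 16 were higher (41%, all genes 21.6%) and 2 lower (5.13%, all genes 25.4%). This count depended on single libraries, with 9 higher without BM replicate 1 and 10 higher without BM replicate 2, RD7 replicate 2 or RD7 replicate 3, and the lower genes numbered 0 without any 1 of those 4 libraries, 1 without R replicate 1 or R replicate 2, 4 without BM replicate 3 and 6 without RD7 replicate 1. The translocon subunit Sec61b was at 14.1, 11.6 and 33.7 FPKM in BM and 68.0, 119 and 58.9 in RD7, and Creb3l1, a transcription factor of secretory cells, at 0.295, 0.255 and 0.255 against 3.11, 2.96 and 1.77. Acute-phase and antimicrobial genes split evenly, with 9 of 24 higher and 9 lower (37.5% each way, against 21.6% and 25.4% of all genes). Lrg1, a leucine-rich glycoprotein, was at 2.62, 2.33 and 3.06 FPKM in BM and 205, 294 and 279 in RD7, and Lbp, which encodes the lipopolysaccharide-binding protein, rose from 32.3 to 298. The epithelial cytokine Tslp was at 47.5, 60.2 and 84.6 FPKM in BM, 210, 193 and 174 in R and 1.87, 1.06 and 2.51 in RD7. Tslp was thus above BM in every R library and 35.3-fold below it in RD7 (limma adjusted p = 4.84e-07). The neutrophil chemokine Cxcl5 fell from 402 to 73.6 FPKM.

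**Figure D4:**
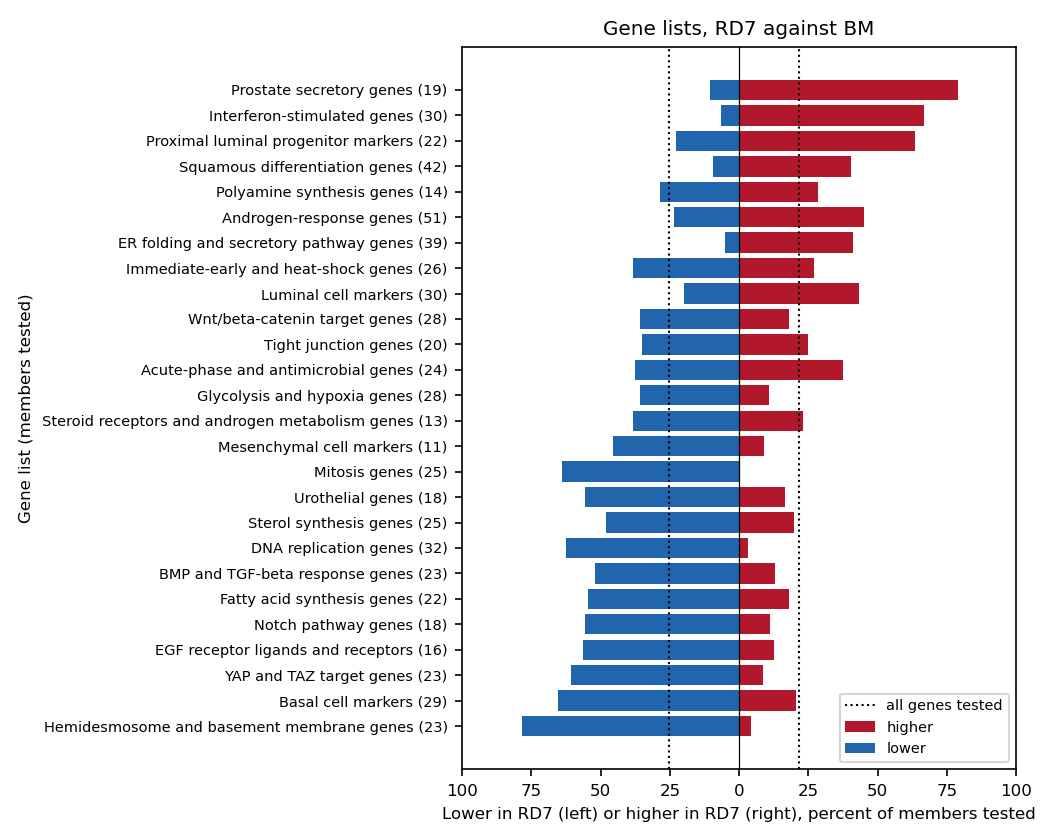
Percent of measured members of each gene list with at least 10 measured members that were called higher (red, right) or lower (blue, left) in RD7 against BM by limma, sorted by the list's median log2 difference. Dotted lines give the same for all genes tested, 21.6% higher and 25.4% lower. Prostate secretory genes stand at the top and genes of hemidesmosomes and basement membrane at the bottom. The secretory place rests on the 19 of 37 genes that passed the filter on low values, some of them through RD7 only.

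Genes that differed only with both factors present were taken as those called against BM and against R in the same direction and not called in R against BM. They numbered 1485 higher (9.36% of genes tested) and 1800 lower (11.3%). Without RD7 replicate 2 there were 881 higher and 1029 lower, and the lower count was also 1125 without RD7 replicate 3 and 1097 without R replicate 3. Since a gene that misses the test in R may still have moved there, a stricter class also asked for a log2 difference of at least 1 against both media and a 95% interval of R minus BM within -1 to 1. It held 527 higher genes (3.32%, 458 of them protein-coding) and 267 lower ones (1.68%, 237 protein-coding). The median log2 differences from BM, 1.46 with genes at 0 in BM set to their lower bound and -1.39, follow from how the class was chosen. Of the 527, 146 were under 0.5 FPKM in both BM and R, and of the 267, 49 were under 0.5 FPKM in RD7.

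Several of the stricter higher genes were near silent without DHT. Beside Sbp and Lrg1, the 10 with the largest separation included Abo, Agtr1a, Sult5a1, Dcpp3, Rasd1, Mroh4 and Tcf15. Abo, a blood-group glycosyltransferase, had no BM read, 0, 0 and 0.0962 FPKM in R and 37.3, 37.7 and 46.7 in RD7, at least 1304-fold above BM. The angiotensin receptor gene Agtr1a was at 0, 0.0336 and 0.0413 FPKM in BM, 0.0762, 0 and 0 in R and 21.2, 16.7 and 20.8 in RD7. Rasd1, a Ras-like GTPase known for induction by steroids, had a measurable base of 1.43, 1.18 and 1.68 FPKM in BM and 1.63, 1.68 and 1.55 in R and reached 52.3, 66.9 and 66.0 in RD7. Its R and BM libraries overlapped and RD7 was 43.2-fold above BM (limma adjusted p = 1.24e-08).

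Among the stricter lower genes, the 10 with the largest separation were Cd34, Aqp4, Car8, Ces1d, Tgfb3, Vnn3, Egr3, Samd5, Gypc and Chil1. Cd34, a sialomucin of stem and progenitor cells, was at 28.1, 34.0 and 30.3 FPKM in BM, 21.2, 23.3 and 21.3 in R and 0.981, 0.402 and 1.17 in RD7. R lay somewhat below BM (log2 difference -0.48, limma adjusted p = 0.19) and RD7 was 36.2-fold below BM. The water channel Aqp4 was at 7.23, 8.27 and 7.85 FPKM in BM, 9.11, 9.53 and 9.10 in R and 0.330, 0.155 and 0.338 in RD7. Car8, a carbonic anhydrase-related protein, stayed at 34.8 to 48.5 FPKM in the 6 BM and R libraries and was at 3.13, 3.36 and 2.90 in RD7.

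**Figure D5:**
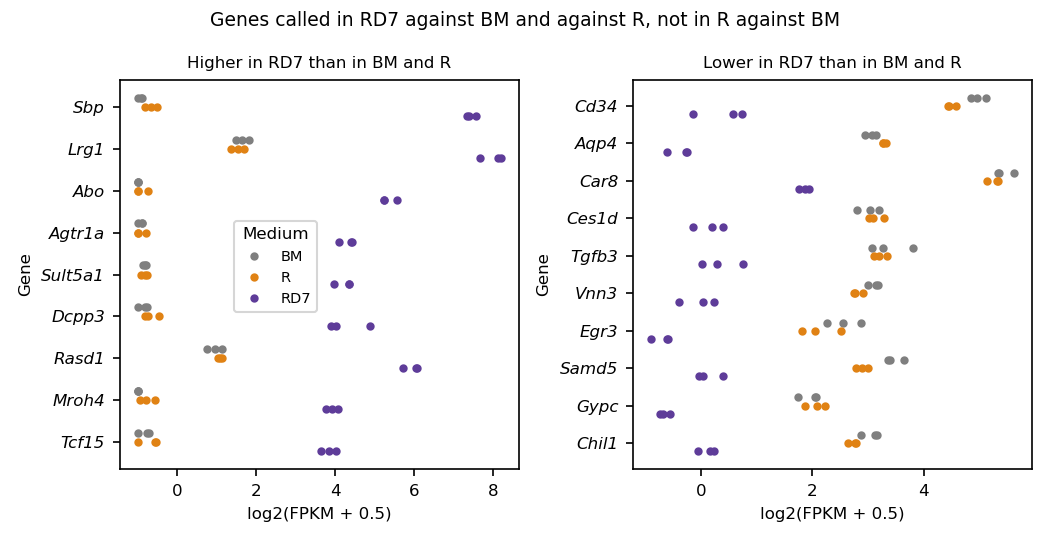
Log2(FPKM + 0.5) in each library for 9 of the 10 higher and the 10 lower genes of the stricter class whose smaller difference, against BM or against R, was largest. For every gene shown, the 3 RD7 libraries stand apart from all 6 BM and R libraries, a separation that the choice of genes fixes.

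The class drew on the lists unevenly. Of 51 androgen-response genes, 16 were higher only with both factors (all genes, 9.36%) and 4 lower (all genes, 11.3%). Of 19 secretory genes 12 were higher and 1 lower. Secretory genes silent in BM and R passed the filter on low values through RD7, which largely fixes this class for them. The secretory count therefore describes the 19 and is no evidence about the list. Of 32 replication genes 18 were lower only with both factors (all genes, 11.3%), of 25 mitosis genes 14 and of 29 basal markers 13. In R against BM 0 of all 32 replication and 25 mitosis genes passed the limma test. At an unadjusted limma p under 0.05 there were 7 and 2, of which 0 and 1 were lower in R. Among squamous genes, of which most had moved in R, 1 was higher and 2 were lower only with both factors. In the windows before starts, AGAACA was found in 18.1% of 364 stricter higher genes and 12.8% of 179 stricter lower genes, against 13.2% of all, TATAAA in 11.5% and 13.4%, against 8.28%, and CTTTGAT in 2.47% and 4.47%, against 2.89%.

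Some genes moved in R against BM and in the opposite direction in RD7 against R. For part of them a comparison of RD7 with BM shows little of this change. The alcohol dehydrogenase Adh1 was at 41.1, 27.6 and 44.1 FPKM in BM, 1.40, 1.48 and 1.26 in R and 35.6, 48.2 and 50.1 in RD7. BM and RD7 overlapped and differed by 0.26 on the log2 scale (95% interval -0.18 to 0.70, limma adjusted p = 0.295). Prom1, a membrane protein of luminal progenitors, followed the same course with means of 61.2, 12.3 and 47.8 FPKM in BM, R and RD7 (RD7 against BM, limma adjusted p = 0.094). B4galnt2, a glycan-modifying enzyme, was at 27.0, 17.1 and 13.2 FPKM in BM, 1.46, 1.30 and 1.39 in R and 85.4, 65.1 and 71.8 in RD7. It overshot BM 3.88-fold, and 15.3% of its exonic bases overlap another gene. The cytochrome P450 gene Cyp2f2 had 196, 27.4 and 321 FPKM and was also called higher in RD7 than in BM (limma adjusted p = 0.0067). In the opposite course, the kallikrein Klk13 had 0.217, 6.32 and 0.16 FPKM in BM, R and RD7, the cornified envelope gene Rptn 0.136, 5.19 and 0.109 and the hormone gene Stc1 0.463, 9.71 and 0.144. Calm4, a calmodulin-like protein of skin, had 0.411, 29.8 and 2.84 FPKM and stayed above BM in RD7 (limma adjusted p = 0.000123).

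Switches between low and clear expression were counted with fixed levels. Called genes under 0.5 FPKM in BM and at 5 FPKM or more in RD7 numbered 41, of which 34 were in the stricter both-factor class. Genes at 5 FPKM or more in BM and under 0.5 FPKM in RD7 numbered 22, of which 4 were in that class. The losses thus included genes that had largely fallen in R, such as Nid1, Gsdmc3 and fibronectin (Fn1, 10.9, 0.986 and 0.218 FPKM in BM, R and RD7).

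Markers of other cell types were low but not constant. The summed level of 16 mesenchymal markers was 27.1 to 36.7 FPKM in BM and 67.8 to 95.3 in RD7, a rise carried by Dcn (decorin, a matrix proteoglycan), at 3.91, 4.21 and 6.24 FPKM in BM, 23.7, 23.2 and 18.8 in R and 63.9, 74.1 and 91.7 in RD7. Lum and Thy1 were at 0 in both groups, and Fn1, Acta2 (12.4 to 1.29 FPKM), Vim (1.37 to 0.0657), Col3a1 and Pdgfrb fell. Of 16 immune markers, Cd3g, Nkg7 and Tyrobp were at 0 in both groups, and the summed level of 162 to 213 FPKM in BM and 41.1 to 60.0 in RD7 was mostly Cd14, a lipopolysaccharide co-receptor that fell from 174 to 43.4. Endothelial markers summed to 1.14 to 1.48 FPKM in BM and 3.54 to 3.74 in RD7, with Cdh5 and Cldn5 at 0 in both, and neuroendocrine markers to 4.17 to 5.36 and 1.77 to 2.13, with Neurod1 and Pcsk1 at 0. Seminal vesicle markers rose from 0.696 to 1.18 FPKM in BM to 10.3 to 14.2 in RD7, mainly Ceacam10 (0.519 to 11.1), with Sva, Svs3a, Svs3b, Svs6 and Spinkl at 0 in both. The part of any such cells in the results above was not tested.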

How the data were processed

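RNA-seq of 9 libraries was deposited as FPKM per gene and library. Per the submitters' processing notes, the tools were CASAVA 1.9, STAR 2.6.1a, featureCounts and edgeR 3.24.1 with GRCm38, and per the labels' protocols cDNA came from a SMART-Seq kit (strand is not kept by this chemistry). Reads per gene were read back from the FPKM values with GENCODE M21 lengths (22971 of 26813 genes above 0) or a fitted length (3842), to within 0.01 reads, and served depth, the filter, counting limits and limma-voom as an alternative. The floor of 3 reads was 0.461 CPM (reads scaled to library size) in BM replicate 1.

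The 15872 genes that reached 0.5 CPM in 3 or more libraries entered limma 3.58.1 on log2(FPKM + 0.5), with 1 mean per medium over all 9 libraries, trend and robust eBayes, two-sided tests and Benjamini-Hochberg adjustment, called at adjusted p under 0.05. Fold changes of low genes are understated on this scale. The procedure was tested on simulated data. A few genes that the naming rule picked are not reported here. Errors beside log2 differences are standard errors.

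Genes, 30 lists and tests were chosen with earlier results of these data known. Named genes were a fixed set, the 10 highest and lowest, and the 10 leading stricter both-factor genes in each direction. To these were added up to 4 called genes per list and direction, the 6 leading reversals in each direction and the most abundant nuclear protein-coding genes. List symbols Troy, Ankh, Ero1a, Ero1b and Ins were not matched. Same-numbered libraries did not deviate together (correlations from -0.52 to 0.27). For differently numbered libraries the range was -0.58 (BM replicate 3 with RD7 replicate 1) to 0.58 (BM replicate 3 with R replicate 1), and its source was not tested.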

Additional observations from a re-analysis of the deposited data

How the results depend on the processing

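Under each alternative other than leaving out a library, the counts of genes higher and lower in RD7 and of both-factor genes stayed within 1.5 times those reported. With no filter on low values 2841 genes were higher and 3274 lower, with median-of-ratios scaling 3849 and 3504, with limma-voom on the reads read back 3314 and 4150, and with only the BM and RD7 libraries 2744 and 3140. Leaving out each library in turn gave 2219 to 4076 higher, 2616 to 4443 lower, 881 to 1543 higher only with both factors and 1029 to 2051 lower only with both factors. The replicate block, fitted although the numbers do not pair the libraries, gave 2930 higher, 3368 lower, 1228 higher only with both factors and 1364 lower only with both factors.

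Of 238 named genes tested, 224 were called and 188 kept the call in all 18 alternatives, while 36 lost it in at least 1. With the length trend removed, 2 changed sign: Krt14 to -0.30 and Abca12 to 0.19 (limma adjusted p = 0.188), and the cause was not tested. BM replicate 1, with 6505859 reads, limits what can be said of genes near the filter.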
